A study of Mus musculus with 12 samples.

Results

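To follow how the liver handles fatty acids in diet-induced metabolic dysfunction-associated steatohepatitis (MASH), 10 genes of fatty acid uptake, binding and export were read from the liver RNA-seq of 2 mouse strains. The genes were chosen by name (Cd36, Slc27a2, Slc27a4, Vldlr, Fabp1, Fabp2, Fabp4, Fabp7, Pparg and Mttp), and all 10 were found among the 17710 genes of the deposited table. The mice were wild-type males of the outbred ICR stock or the inbred C57BL/6J strain, 8 weeks old at the start, and they were fed for 10 weeks. There were 4 groups of 3 libraries, namely ICR mice on CDAHFD, a high-fat diet of defined amino acids that lacks choline, ICR mice on normal chow (ND), C57BL/6J mice on CDAHFD and C57BL/6J mice on ND. The feeds differ in several components at once, so the lack of choline, the lowered methionine and the high fat content cannot be told apart. Bulk liver RNA was measured, so the values are averages over all its cell types, and fewer cells of a type and less RNA per cell cannot be told apart.

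Fatty acids reach the hepatocyte as albumin-bound free acids or inside lipoproteins. At the membrane CD36 and the fatty acid transport proteins of the SLC27 family promote their uptake, the VLDL receptor takes up triglyceride-rich particles, and in the cytoplasm fatty acid binding proteins (FABPs) carry them. The nuclear receptor PPAR-gamma, encoded by Pparg, switches on genes of fatty acid uptake and storage, and the microsomal triglyceride transfer protein, encoded by Mttp, loads lipid onto apolipoprotein B for export as very-low-density lipoprotein (VLDL).

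The libraries held 22245245 to 32214782 counts. Levels are given as CPM, read counts scaled to an equal library total, after TMM, a method that corrects each library for the share of reads taken by its most abundant genes. Differences are log2 fold changes from edgeR's quasi-likelihood test, with CDAHFD over ND or ICR over C57BL/6J, and a gene was called, or said to rise or fall, where the p-value adjusted by Benjamini-Hochberg over all genes tested was under 0.05. When libraries were scaled by their total alone, the median gene moved by 0.61 in ICR and 0.65 in C57BL/6J towards CDAHFD, so each change below is relative to the typical gene. Positions are those of protein-coding genes in GENCODE vM21 on GRCm38, matched by gene ID. The hepatocyte marker list (8 of 8 found, with Alb, Ttr and Apoa1 among them) summed to 68798 to 81404 CPM in ICR CDAHFD and 86564 to 127058 CPM in ICR ND livers. In C57BL/6J livers the same sum was 47463 to 79508 CPM on CDAHFD and 109637 to 131031 CPM on ND.

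On CDAHFD, Cd36, Fabp4 and Pparg rose in both strains, Fabp7 rose in C57BL/6J, and Fabp1, Slc27a2 and Mttp fell in both strains. In ICR, 3 of 10 members were called higher, where 20.1% of 13319 genes tested were, and 3 were called lower, where 16.5% were. In C57BL/6J, 4 of 10 members were called higher, where 26% of 13402 genes tested were, and 3 were called lower, where 21.2% were. The median log2 difference of the members was 0.51 in ICR and 0.46 in C57BL/6J, and that of all genes tested was -0.015 in ICR and 0.0036 in C57BL/6J. The members' medians fall in a gap between members that differ in sign. The gap lies between Fabp2 (-0.03) and Fabp7 (1.06) in ICR, and between Fabp2 (-0.07) and Pparg (0.99) in C57BL/6J. With 10 members, these counts lie near the shares of all genes. The plot of each member by library shows the spread behind them.

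**Figure D1:**
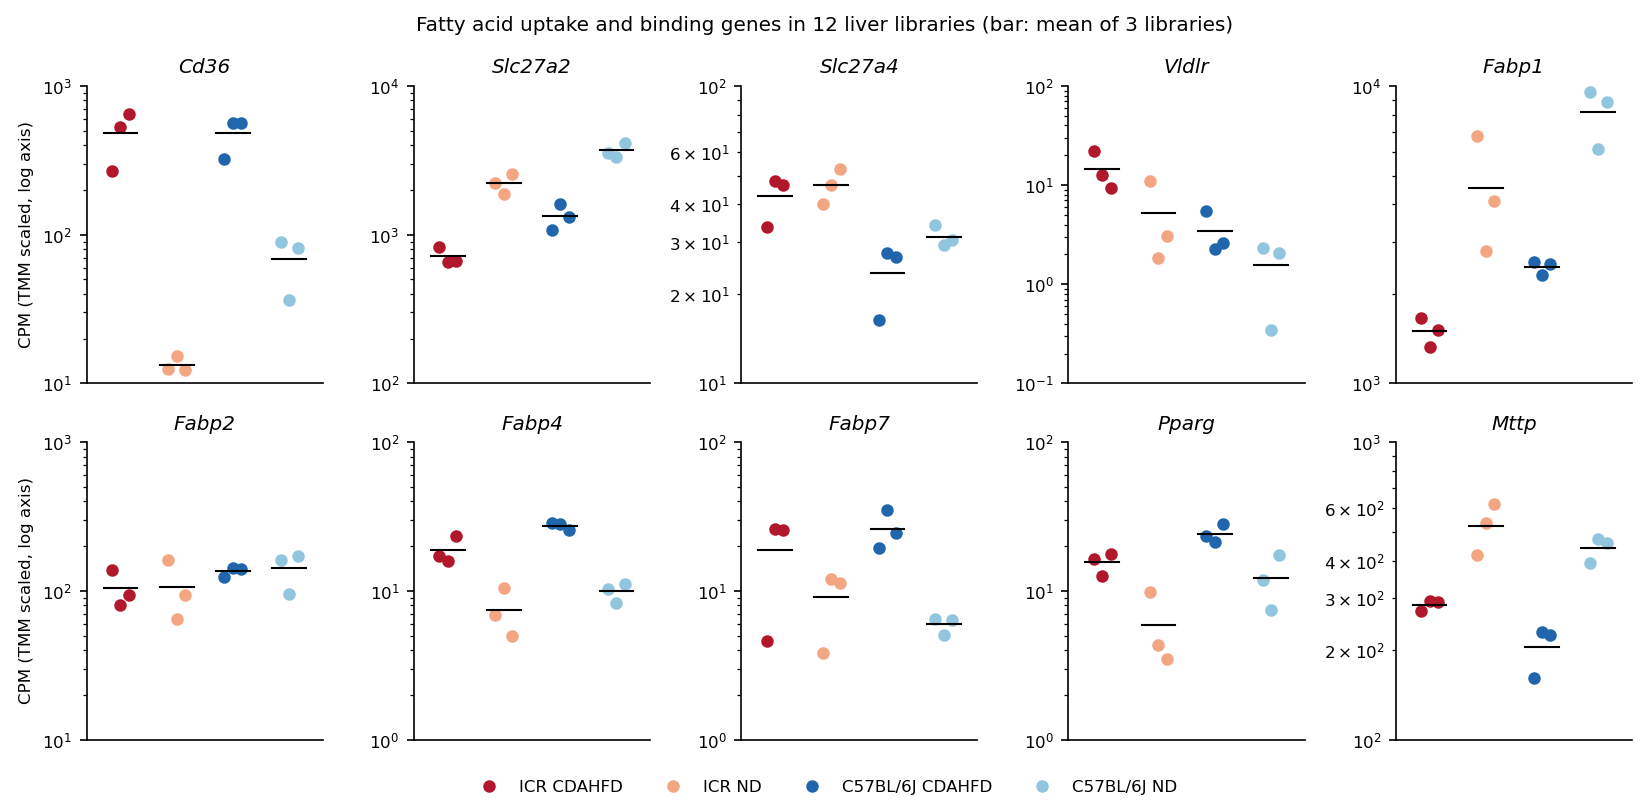
Each panel plots 1 gene on its own log axis of TMM-scaled CPM, each point is 1 library, and the bar is the mean of 3 libraries in ICR CDAHFD, ICR ND, C57BL/6J CDAHFD and C57BL/6J ND, left to right. Cd36 sits at 268 to 645 CPM in ICR CDAHFD livers, above 12.3 to 15.2 CPM in ICR ND livers, while the points of Fabp2 overlap between diets in both strains.

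CD36 is a scavenger receptor and fatty acid translocase, normally low in hepatocytes and higher in adipocytes, macrophages and capillary endothelium. Cd36 (ENSMUSG00000002944, chr5:17781690-17888801) read 268, 532 and 645 CPM in the ICR CDAHFD livers, against 12.4, 15.2 and 12.3 CPM in the ICR ND livers. C57BL/6J livers read 325, 564 and 567 CPM on CDAHFD, against 88.9, 36.2 and 81.9 CPM on ND. The diets did not overlap in either strain, and replicate 1 was the lowest CDAHFD library of both strains. By edgeR's quasi-likelihood test Cd36 rose by 5.18 in ICR (SE 0.35, adjusted p = 0.000293), a 36.2-fold difference. It rose by 2.82 in C57BL/6J (SE 0.36, adjusted p = 0.000277), a 7.05-fold difference. These were the largest differences among the 10 members in each strain.

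Between strains, Cd36 overlapped on CDAHFD and not on ND. On CDAHFD the mean was 482 ± 194 CPM in ICR and 485 ± 139 CPM in C57BL/6J (SD, n = 3 each), a log2 difference of -0.01 with a 95% interval of -0.80 to 0.77. On ND it was 13.3 ± 1.6 CPM in ICR and 69.0 ± 28.6 CPM in C57BL/6J (SD, n = 3 each). The ND difference of -2.37 (SE 0.39) was called by edgeR's quasi-likelihood test (adjusted p = 0.00272). The difference between the diet effects of the strains was 2.36 (SE 0.52), with an unadjusted p of 0.000692 and an adjusted p of 0.145 in edgeR's test over 13901 genes, so it was not called. DESeq2's Wald test gave the same difference an adjusted p of 0.0018, and over the other settings the edgeR adjusted p ranged from 0.0608 to 0.289.

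Macrophage markers were higher on CDAHFD beside Cd36. The summed level of the 9 macrophage markers found of 10 was 1378, 2574 and 3681 CPM in ICR CDAHFD livers, against 160.6, 279.1 and 225.8 CPM in ICR ND livers. In C57BL/6J it was 1625, 1817 and 1997 CPM on CDAHFD, against 206.2, 227.9 and 228.9 CPM on ND. Most of the sum on CDAHFD was Lyz2 and Gpnmb, at 897 and 157 CPM in ICR CDAHFD replicate 1 and 1966 and 1157 CPM in replicate 3. Of the 8 tested, 6 were called higher in ICR and 7 in C57BL/6J, while Csf1r, the colony-stimulating factor receptor of the macrophage lineage, did not pass 0.171 CPM in any library, and whether the counting captured its reads could not be checked. ICR CDAHFD replicate 1 was lowest of its group in both Cd36 and this sum, and so was C57BL/6J CDAHFD replicate 1. On ND the sums of the strains overlapped, while Cd36 did not. There C57BL/6J replicate 2 was lowest of its group in Cd36, at 36.2 CPM, with a marker sum of 227.9 CPM. The part of macrophages in the Cd36 result was not tested.

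The window of 250 bases before a RefSeq start site of Cd36 (GRCm38.p6, minus strand) is shown. It is shown because it was 1 of 2 windows of the members that held a match to DR1. That start site lies inside the span of Cd36 given above, and no window at the outer end of the gene was searched. DR1, with the letters AGGTCANAGGTCA, is the repeat that heterodimers of PPARs and RXR bind. Both strands were searched with up to 2 mismatches in the 12 fixed bases, and the capitals mark the match. The other window, of Fabp1, stands on the plus strand, and that of Slc27a2, also plus, is shown as a member with no match. The Slc27a2 window also lies inside the span of its gene, so the sequence before that span was not searched. The end of the Fabp1 window reaches into the span of Fabp1.
Cd36, chr5:17835897-17836146: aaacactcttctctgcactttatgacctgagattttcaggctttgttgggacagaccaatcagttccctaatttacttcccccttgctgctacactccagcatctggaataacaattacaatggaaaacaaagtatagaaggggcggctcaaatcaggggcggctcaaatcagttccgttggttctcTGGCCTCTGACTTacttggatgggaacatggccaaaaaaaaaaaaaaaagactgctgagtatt
Fabp1, chr6:71199629-71199878: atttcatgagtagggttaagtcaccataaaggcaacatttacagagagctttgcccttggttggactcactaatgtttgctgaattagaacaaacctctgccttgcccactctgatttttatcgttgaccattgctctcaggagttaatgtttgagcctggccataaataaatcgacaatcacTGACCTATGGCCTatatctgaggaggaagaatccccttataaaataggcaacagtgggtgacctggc
Slc27a2, chr2:126552774-126553023: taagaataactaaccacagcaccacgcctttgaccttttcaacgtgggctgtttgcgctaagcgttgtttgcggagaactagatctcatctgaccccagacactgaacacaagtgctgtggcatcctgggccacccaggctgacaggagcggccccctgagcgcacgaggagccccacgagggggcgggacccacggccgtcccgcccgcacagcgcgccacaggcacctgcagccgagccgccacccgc
The Cd36 match begins 63 bases before the start and has 2 mismatches, and the Fabp1 match begins 67 bases before the start and has 1. RefSeq windows were found for 9 of the 10 members (12 windows), and 2 held a match. Of the 32851 windows of all genes, 3.24% held a match with up to 2 mismatches and 0.484% with up to 1. A match of letters is a description and no binding was measured. Of the 2 genes with a match, Cd36 rose and Fabp1 fell.

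SLC27A2 (FATP2) is the main fatty acid transport protein of the liver and also activates very-long-chain fatty acids with coenzyme A. Slc27a2 (ENSMUSG00000027359, chr2:126552407-126588243) read 822, 654 and 670 CPM in ICR CDAHFD livers, against 2228, 1864 and 2543 CPM in ICR ND livers. The C57BL/6J livers had 1079, 1608 and 1316 CPM on CDAHFD, against 3555, 3340 and 4160 CPM on ND. Every CDAHFD library lay below every ND library, within and across the strains. Slc27a2 fell by 1.62 in ICR (SE 0.21, adjusted p = 0.00185) and fell by 1.46 in C57BL/6J (SE 0.25, adjusted p = 0.00134) in edgeR's quasi-likelihood test. The lincRNA gene Gm26697 overlaps it on the opposite strand, and the strand setting of the counting was not stated.

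Slc27a2 was also lower in ICR than in C57BL/6J on both diets. The log2 difference was -0.90 on CDAHFD (SE 0.21, adjusted p = 0.0177) and -0.74 on ND (SE 0.21, adjusted p = 0.0295) by edgeR's quasi-likelihood test. The call on CDAHFD was lost without ICR CDAHFD replicate 2 (adjusted p = 0.0825), ICR CDAHFD replicate 3 (0.0821) or C57BL/6J CDAHFD replicate 2 (0.0503). The call on ND was lost without ICR ND replicate 2 or 3 or C57BL/6J ND replicate 1 or 3 (adjusted p = 0.0542 to 0.11).

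SLC27A4 (FATP4) is a related transport protein, best known from the intestine and skin. Slc27a4 (ENSMUSG00000059316, chr2:29802634-29817522) read 33.6, 47.8 and 46.4 CPM in ICR CDAHFD livers, against 40.3, 46.5 and 52.8 CPM in ICR ND livers. In C57BL/6J it read 16.3, 27.4 and 26.7 CPM on CDAHFD, against 34.1, 29.1 and 30.3 CPM on ND. The diets overlapped in ICR, and in C57BL/6J the CDAHFD livers were all lower, with replicate 1 the lowest. The diet difference was -0.12 in ICR (SE 0.16, adjusted p = 0.59) and -0.41 in C57BL/6J (SE 0.20, adjusted p = 0.124), and neither was called by edgeR's quasi-likelihood test. Scaled by library total alone, the difference was 0.49 in ICR (adjusted p = 0.0243) and 0.22 in C57BL/6J (adjusted p = 0.307), so its sign relative to the diet depends on the scaling.

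Between strains, Slc27a4 ran opposite to Slc27a2. On CDAHFD it averaged 42.6 ± 7.8 CPM in ICR and 23.5 ± 6.2 CPM in C57BL/6J livers (SD, n = 3 each), and the log2 difference of 0.86 was called (SE 0.20, adjusted p = 0.0173, edgeR). On ND it averaged 46.5 ± 6.3 CPM in ICR and 31.2 ± 2.6 CPM in C57BL/6J livers (SD, n = 3 each), and the difference of 0.58 missed the threshold (SE 0.20, adjusted p = 0.0607, edgeR), while DESeq2 called it (adjusted p = 0.0476). Without ICR ND replicate 1 or C57BL/6J CDAHFD replicate 1 it was called by edgeR as well (adjusted p = 0.0396 and 0.0205). The strains did not overlap on either diet. The call on CDAHFD was lost without ICR CDAHFD replicate 2 (adjusted p = 0.0704), ICR CDAHFD replicate 3 (0.0687) or C57BL/6J CDAHFD replicate 1 (0.0541).

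Within the Slc27 family, levels can be compared per length by the deposited FPKM (fragments scaled to gene length and library total). Slc27a2 made up 74.4%, 63.9% and 67.1% of the summed FPKM of the 6 family genes in ICR CDAHFD livers, against 65.6%, 58.6% and 62.4% in ICR ND livers. In C57BL/6J its share was 77.7%, 77.2% and 76.5% on CDAHFD, against 72.8%, 67.0% and 71.0% on ND. The diets overlapped in ICR and not in C57BL/6J. The level of Slc27a2 fell, while its share was 6.57 percentage points higher on CDAHFD on average over the strains (exact two-sided permutation test within strains, p = 0.01, where 0.005 is the smallest p possible). Next in the family was Slc27a5, the bile acid-CoA synthetase FATP5, with 25.2 ± 4.7% in ICR CDAHFD against 36.4 ± 3.3% in ICR ND livers, and 19.0 ± 1.9% in C57BL/6J CDAHFD against 28.7 ± 3.1% in C57BL/6J ND livers (SD, n = 3 each). Slc27a4 held 3.41 ± 0.77% in ICR CDAHFD against 1.08 ± 0.12% in ICR ND livers, and 1.13 ± 0.15% in C57BL/6J CDAHFD against 0.506 ± 0.078% in C57BL/6J ND livers (SD, n = 3 each).

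The VLDL receptor binds apolipoprotein E-rich particles and is low in the liver of healthy mice. Vldlr (ENSMUSG00000024924, chr19:27216484-27254231) read 21.9, 12.8 and 9.40 CPM in ICR CDAHFD livers, against 10.9, 1.86 and 3.03 CPM in ICR ND livers. C57BL/6J livers read 5.54, 2.27 and 2.63 CPM on CDAHFD, against 2.30, 0.345 and 2.07 CPM on ND, where the lowest library held 6 counts. The diets overlapped in both strains, through ICR ND replicate 1 and C57BL/6J ND replicate 1. The diet difference was 1.47 in ICR (SE 0.66, adjusted p = 0.122) and 1.14 in C57BL/6J (SE 0.59, adjusted p = 0.143), not called by edgeR's quasi-likelihood test. Without ICR ND replicate 1 the difference in ICR was 2.61 and was called (adjusted p = 0.00845). DESeq2's Wald test also called it in ICR (adjusted p = 0.049), and scaling by library total gave 2.06 in ICR (adjusted p = 0.0391) and 1.81 in C57BL/6J (adjusted p = 0.0355), called in both.

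On CDAHFD the ICR libraries all lay above the C57BL/6J libraries in Vldlr. The strain difference was 2.08 on CDAHFD (SE 0.67, adjusted p = 0.0539) and 1.74 on ND (SE 0.72, adjusted p = 0.103), and neither was called by edgeR's quasi-likelihood test. DESeq2's Wald test called both (adjusted p = 0.0127 on CDAHFD and 0.043 on ND). On CDAHFD edgeR called it too without a filter on low counts (adjusted p = 0.0476), and without ICR ND replicate 1 (0.0189), ICR ND replicate 2 (0.0312) or C57BL/6J ND replicate 2 (0.0397).

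**Figure D2:**
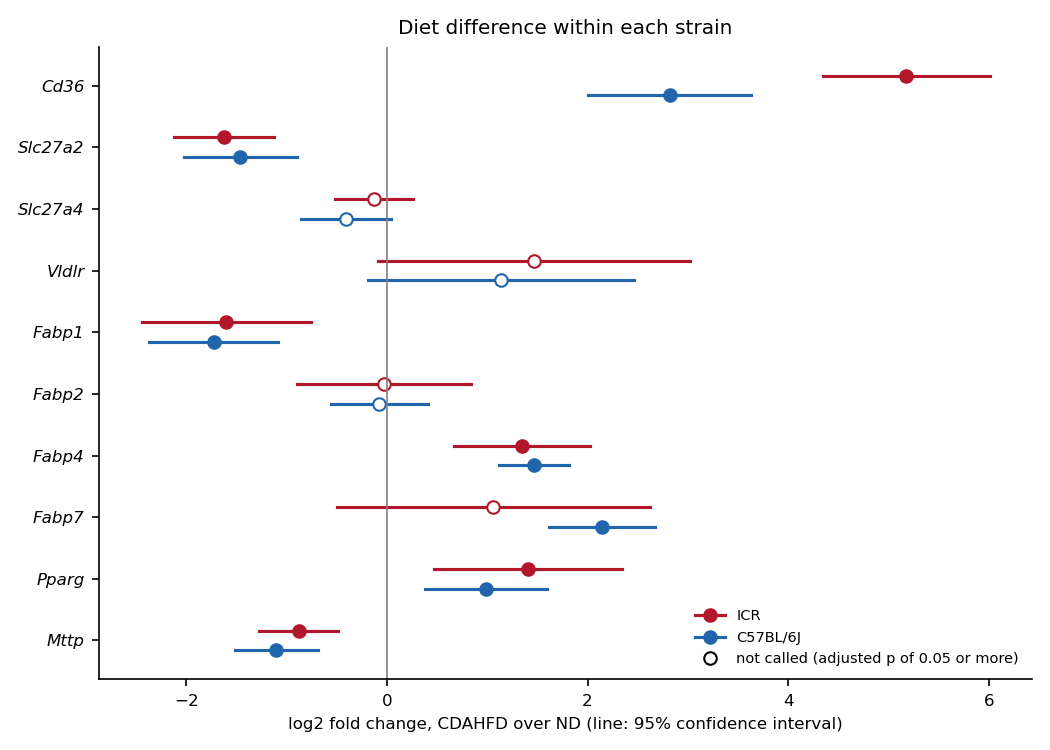
The log2 fold change of CDAHFD over ND is plotted for each member in ICR and in C57BL/6J, with its 95% confidence interval as a line, and open points mark differences that were not called. Cd36 stands furthest right at 5.18 in ICR and 2.82 in C57BL/6J, and the intervals of Slc27a4, Vldlr and Fabp2 span 0 in both strains.

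FABP1 is the liver fatty acid binding protein, one of the most abundant proteins of the hepatocyte cytoplasm. Fabp1 (ENSMUSG00000054422, chr6:71199827-71205023) read 1664, 1330 and 1516 CPM in ICR CDAHFD livers, against 6783, 2784 and 4095 CPM in ICR ND livers. The C57BL/6J livers had 2552, 2320 and 2524 CPM on CDAHFD, against 9577, 6161 and 8805 CPM on ND. The diets did not overlap in either strain, and the CDAHFD libraries lay closer together than the ND libraries. Fabp1 fell by 1.60 in ICR (SE 0.36, adjusted p = 0.0132) and fell by 1.73 in C57BL/6J (SE 0.28, adjusted p = 0.0011) in edgeR's quasi-likelihood test. In ICR the call was lost without ICR CDAHFD replicate 2 (adjusted p = 0.0583) or 3 (0.0505), and with scaling by library total it was lost too (adjusted p = 0.0511). Hepatocyte markers were lower on CDAHFD beside Fabp1, Slc27a2 and Mttp. Of the 8, 6 were called lower in each strain, with a median log2 difference of -0.97 in ICR and -1.22 in C57BL/6J, and in ICR 3 were called when any 1 CDAHFD library was left out and 2 with scaling by library total. The part of hepatocyte RNA in the falls was not tested.

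Between strains, Fabp1 averaged 1503 ± 167 CPM in ICR and 2465 ± 126 CPM in C57BL/6J livers on CDAHFD, and 4554 ± 2039 CPM in ICR and 8181 ± 1792 CPM in C57BL/6J livers on ND (SD, n = 3 each). The log2 differences of -0.71 on CDAHFD (SE 0.31, adjusted p = 0.13) and -0.85 on ND (SE 0.31, adjusted p = 0.0689) were not called by edgeR's quasi-likelihood test. DESeq2's Wald test called both (adjusted p = 0.0481 on CDAHFD and 0.0133 on ND), and without ICR ND replicate 1 the ND difference was -1.25 and called by edgeR (adjusted p = 0.00692).

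FABP2, the intestinal form, binds fatty acids in enterocytes and is also found in mouse liver. Fabp2 (ENSMUSG00000023057, chr3:122895072-122899506) read 139, 80.2 and 93.3 CPM in ICR CDAHFD livers, against 161, 64.3 and 93.9 CPM in ICR ND livers. In C57BL/6J it read 124, 143 and 140 CPM on CDAHFD, against 163, 95 and 172 CPM on ND. The diets overlapped in both strains. The difference was -0.03 in ICR (95% interval -0.90 to 0.84, adjusted p = 0.956) and -0.07 in C57BL/6J (95% interval -0.55 to 0.41, adjusted p = 0.802) by edgeR's quasi-likelihood test, and its sign turned when single libraries were left out or libraries were scaled by their total. The antisense gene 4933405D12Rik overlaps Fabp2.

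FABP4 is the adipocyte and macrophage form, also made by capillary endothelium. Fabp4 (ENSMUSG00000062515, chr3:10204088-10208576) read 17.2, 15.9 and 23.5 CPM in ICR CDAHFD livers, against 6.93, 10.5 and 4.96 CPM in ICR ND livers. C57BL/6J livers read 28.5, 28.0 and 25.5 CPM on CDAHFD, against 10.4, 8.28 and 11.1 CPM on ND. The diets did not overlap in either strain. Fabp4 rose by 1.35 in ICR (SE 0.29, adjusted p = 0.0112) and by 1.46 in C57BL/6J (SE 0.15, adjusted p = 9.96e-05) in edgeR's quasi-likelihood test.

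Of the cell types known for Fabp4, the macrophage sum given for Cd36 was higher on CDAHFD in both strains. The 10 endothelial markers, all found, summed to 249.8 to 294.1 CPM in ICR CDAHFD and 176.6 to 276.1 CPM in ICR ND livers, and to 188.9 to 273.0 CPM in C57BL/6J CDAHFD and 170.3 to 299.2 CPM in C57BL/6J ND livers, so the diets overlapped in both strains. Stab2, one of these markers, did not pass 0.524 CPM in any library, and whether the counting captured its reads could not be checked. Of the 9 tested, 2 were called higher in ICR (Eng and Emcn), and 2 higher (Lyve1 and Eng) and 1 lower in C57BL/6J. In ICR 1 was higher when CDAHFD replicate 1, CDAHFD replicate 3 or ND replicate 3 was left out, and scaling by library total gave 5. In C57BL/6J 1 was higher when CDAHFD replicate 2 or 3, or ND replicate 1 or 2, was left out, and the lower calls were 0 without CDAHFD replicate 1, ND replicate 1 or ND replicate 3, 2 without CDAHFD replicate 3 and 3 without ND replicate 2. Of the adipocyte markers, 9 of 10 were found, and Adipoq did not pass 0.115 CPM and Plin1 did not pass 0.0528 CPM in any library. Their sum was 1444 to 1813 CPM in ICR CDAHFD and 1170 to 9407 CPM in ICR ND livers, and 605.9 to 1316 CPM in C57BL/6J CDAHFD and 1863 to 7836 CPM in C57BL/6J ND livers, nearly all of it from Car3, a carbonic anhydrase that hepatocytes also express. By edgeR's quasi-likelihood test 3 were tested in ICR, with Cidec called higher and Adrb3 lower (-2.19, adjusted p = 0.00508). In C57BL/6J 4 were tested, with Cidec called higher and Adrb3 (-2.63, adjusted p = 8.05e-06) and Car3 (-2.50, adjusted p = 0.00395) lower. In ICR 2 were lower without ND replicate 2, and in C57BL/6J 2 were higher without ND replicate 3. The part of macrophages and endothelium in the Fabp4 result was not tested.

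FABP7, the brain form, is made in mouse liver mainly by Kupffer cells, the resident macrophages. Fabp7 (ENSMUSG00000019874, chr10:57784881-57788450) read 4.61, 26.1 and 25.7 CPM in ICR CDAHFD livers, against 3.83, 12.1 and 11.3 CPM in ICR ND livers. The C57BL/6J livers had 19.4, 34.8 and 24.6 CPM on CDAHFD, against 6.44, 5.06 and 6.35 CPM on ND. The diets overlapped in ICR, where replicate 1 was low on both diets, and did not overlap in C57BL/6J. The difference was 1.06 in ICR (SE 0.66, adjusted p = 0.248), not called, and 2.14 in C57BL/6J (SE 0.23, adjusted p = 0.000116), called, by edgeR's quasi-likelihood test. The difference between the strains' diet effects was -1.08 (SE 0.77, adjusted p = 0.721), so a difference between strains was not shown.

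The sum of the 8 Kupffer cell markers, all found, was 473.9, 1092 and 993.5 CPM in ICR CDAHFD livers, against 1146, 1983 and 1751 CPM in ICR ND livers. In C57BL/6J the sum was 254.0, 811.7 and 883.9 CPM on CDAHFD, against 804.1, 1184 and 769.6 CPM on ND. A large part of it was C6, a complement gene that hepatocytes also express, and replicate 1 had the lowest sum in every group but C57BL/6J ND. Without C6, left out after the values were seen, the other 7 summed to 170, 650 and 511 CPM in ICR CDAHFD against 266, 725 and 494 CPM in ICR ND livers, and to 94.9, 590 and 660 CPM in C57BL/6J CDAHFD against 327, 417 and 342 CPM in C57BL/6J ND livers. So C57BL/6J CDAHFD replicates 2 and 3 lay above every C57BL/6J ND library and replicate 1 below. With all libraries none of the 8 was called higher by edgeR's quasi-likelihood test or by DESeq2, 0 were higher at an unadjusted p under 0.05, and 2 were called lower in ICR and 3 in C57BL/6J. Without C57BL/6J CDAHFD replicate 1, 3 were called higher in C57BL/6J by edgeR, namely Cd5l (1.69, adjusted p = 0.00066), Marco (1.75, adjusted p = 0.00497) and Vsig4 (0.64, adjusted p = 0.00917), and with scaling by library total 1 was. The part of Kupffer cells in the Fabp7 result was not tested.

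Per length, Fabp1 dominated the family of 8 Fabp genes in the table. Its share of the summed FPKM was 94.3%, 94.1% and 93.6% in ICR CDAHFD livers, against 98.2%, 97.3% and 98.0% in ICR ND livers. In C57BL/6J it was 95.4%, 94.4% and 95.1% on CDAHFD, against 98.8%, 98.4% and 98.7% on ND. The diets did not overlap in either strain, and the share was lower on CDAHFD on average, with a difference of -3.72 percentage points (exact two-sided permutation test within strains, p = 0.005, the smallest p possible). The rest was mostly Fabp2, with 3.68 ± 0.71% in ICR CDAHFD against 1.30 ± 0.025% in ICR ND livers, and 3.0 ± 0.34% in C57BL/6J CDAHFD against 0.979 ± 0.115% in C57BL/6J ND livers (SD, n = 3 each). Fabp4 held 1.06 ± 0.22% in ICR CDAHFD against 0.170 ± 0.130% in ICR ND livers, and 0.945 ± 0.086% in C57BL/6J CDAHFD against 0.107 ± 0.013% in C57BL/6J ND livers (SD, n = 3 each).

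**Figure D3:**
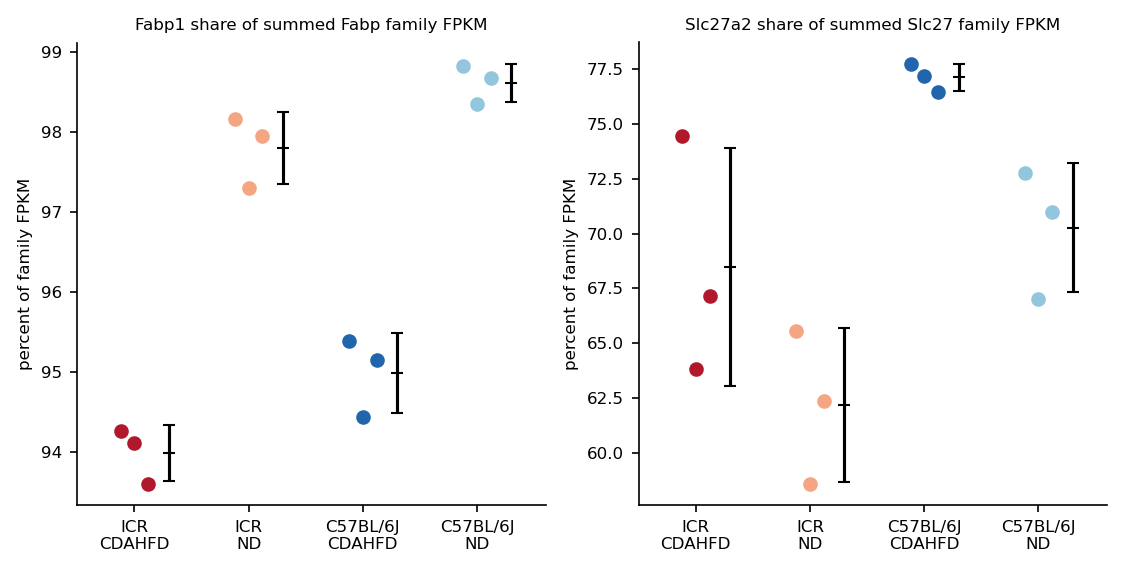
The share of Fabp1 in the summed FPKM of 8 Fabp genes (left) and of Slc27a2 in that of 6 Slc27 genes (right) is plotted in percent for each library, with the mean and SD of 3 libraries beside the points, on axes that do not start at 0. Fabp1 holds 93.6% to 95.4% on CDAHFD and 97.3% to 98.8% on ND, and the Slc27a2 share overlaps between diets in ICR.

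Pparg encodes a nuclear receptor that is high in adipocytes and low in normal hepatocytes. Pparg (ENSMUSG00000000440, chr6:115360951-115490399) read 16.3, 12.6 and 17.8 CPM in ICR CDAHFD livers, against 9.78, 4.34 and 3.48 CPM in ICR ND livers. In C57BL/6J it read 23.5, 21.4 and 28.0 CPM on CDAHFD, against 11.8, 7.48 and 17.5 CPM on ND. The diets did not overlap in either strain, and the ND livers of both strains spread widely. Pparg rose by 1.40 in ICR (SE 0.40, adjusted p = 0.0304) and by 0.99 in C57BL/6J (SE 0.27, adjusted p = 0.0143) in edgeR's quasi-likelihood test. In ICR the call was lost when any 1 of the 3 CDAHFD libraries or ND replicate 2 or 3 was left out (adjusted p = 0.0527 to 0.0877), and without ND replicate 1 the difference was 2.02 and called. The antisense gene Gm44079 overlaps Pparg.

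On ND, Pparg averaged 5.87 ± 3.42 CPM in ICR and 12.3 ± 5.0 CPM in C57BL/6J livers (SD, n = 3 each). The log2 difference of -1.06 missed the threshold (SE 0.37, adjusted p = 0.0607, edgeR) and was called by DESeq2 (adjusted p = 0.0236). EdgeR called it without ICR ND replicate 1 (adjusted p = 0.00411) or C57BL/6J ND replicate 2 (0.032). On CDAHFD the difference was -0.64 (SE 0.35, adjusted p = 0.231, edgeR).

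Mttp, whose protein is needed to assemble VLDL, fell in both strains. Mttp (ENSMUSG00000028158, chr3:138089854-138144968) read 270, 292 and 291 CPM in ICR CDAHFD livers, against 418, 536 and 620 CPM in ICR ND livers. C57BL/6J livers read 161, 230 and 224 CPM on CDAHFD, against 394, 474 and 457 CPM on ND. The diets did not overlap in either strain. Mttp fell by 0.88 in ICR (SE 0.17, adjusted p = 0.00726) and fell by 1.10 in C57BL/6J (SE 0.18, adjusted p = 0.00122) in edgeR's quasi-likelihood test. Scaled by library total alone, the difference in ICR was -0.26 and not called (adjusted p = 0.157). The genes Gm43691 and Trmt10a lie on the opposite strand and overlap it.

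**Figure D4:**
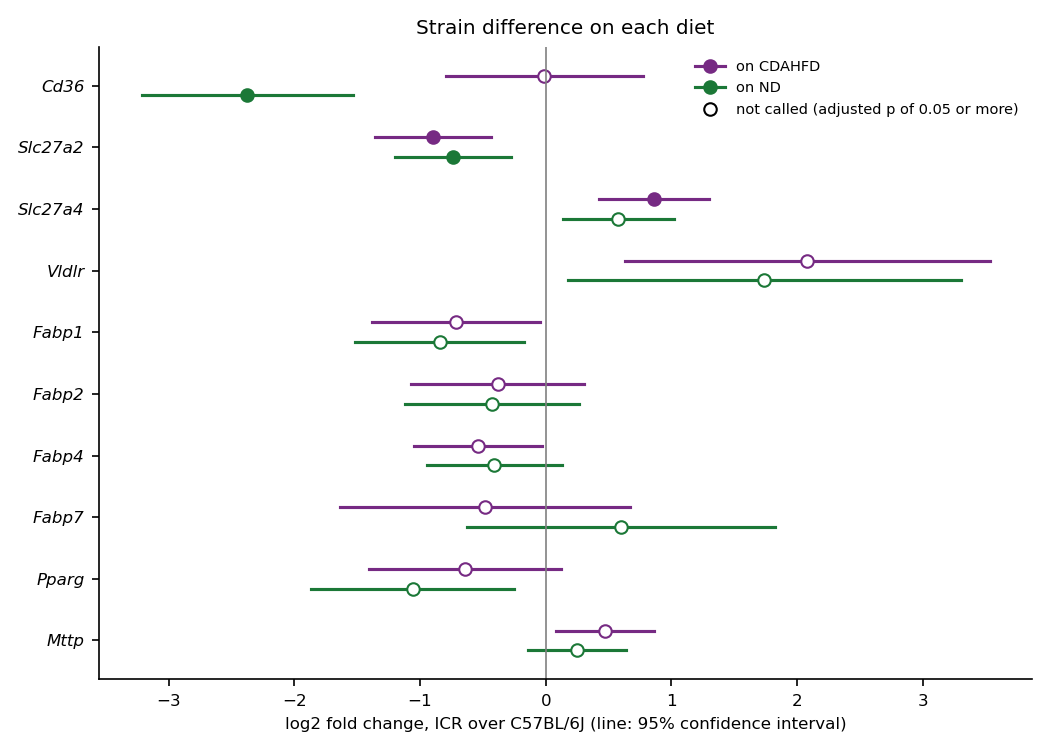
The log2 fold change of ICR over C57BL/6J is plotted for each member on CDAHFD and on ND, with its 95% confidence interval as a line, and open points mark differences that were not called. Cd36 lies at -2.37 on ND and -0.01 on CDAHFD, and Slc27a2 and Slc27a4 lie on opposite sides of 0.

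Over the strain comparisons, few members were called. On CDAHFD, 1 of 10 was higher in ICR (Slc27a4), where 8.13% of 13901 genes tested were, and 1 was lower (Slc27a2), where 7.5% were. On ND none was higher in ICR by edgeR's quasi-likelihood test, where 11.3% of genes were, against 2 by DESeq2 and 2 at an unadjusted p under 0.05 (Slc27a4 and Vldlr), and 2 were lower (Cd36 and Slc27a2), where 10.1% were. For the difference between the strains' diet effects no member was called in either direction, where 0.122% of genes were called higher in ICR and 0.0575% lower. At an unadjusted p under 0.05 there was 1 member, Cd36, and DESeq2 called that 1.

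Ranked by FPKM, Fabp1 had place 1 and Slc27a2 place 2 in every group. Fabp1 averaged 3177 ± 494 FPKM in ICR CDAHFD, 6382 ± 3207 in ICR ND, 5568 ± 776 in C57BL/6J CDAHFD and 11823 ± 3048 in C57BL/6J ND livers (SD, n = 3 each). Cd36 held a different place in each group, place 3 in ICR CDAHFD at 142 ± 52 FPKM, place 8 in ICR ND at 2.57 ± 0.28 FPKM, place 4 in C57BL/6J CDAHFD at 152 ± 33 FPKM and place 5 in C57BL/6J ND at 14.1 ± 6.3 FPKM (SD, n = 3 each). Vldlr was last in all 4, at 0.126 to 1.73 FPKM on average. Neighbours whose libraries overlapped included Cd36 and Fabp2 in ICR CDAHFD, Mttp and Fabp2 in ICR ND, Fabp2 and Cd36 in C57BL/6J CDAHFD and Cd36 and Fabp4 in C57BL/6J ND livers.

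Across the 12 libraries, which share diet and strain, the members' log2 CPM fell into patterns that are given as a description. Fabp1 and Slc27a2 had a Pearson r of 0.95, Cd36 and Fabp4 of 0.91, and Cd36 and Pparg of 0.85, while Mttp had -0.92 with Fabp4 and -0.85 with Cd36. Among 13901 genes, those most like Cd36 were Lgals1 (r = 0.982), Rftn1 (0.976) and Cyb5r1 (0.974). Those most like Fabp1 were Sod1 (0.991), Apoc3 (0.991) and Mrps24 (0.986), and those most like Fabp4 were Srgn (0.977), Tmem132a (0.974) and Siglec5 (0.972).
For Slc27a2 the nearest were Azgp1 (0.989), 1700001C19Rik (0.985) and Afmid (0.982), and for Mttp they were C8b (0.982), Dnajc28 (0.982) and Pigr (0.98). Pparg ran closest to Hey1 (0.972), Med11 (0.965) and Pdpn (0.955), and Slc27a4 to Cyb5b (0.969), Reps2 (0.968) and Tex2 (0.967). The nearest neighbours of Vldlr, Fabp7 and Fabp2 were less alike, with Hmcn1 (0.934), Hk3 (0.935) and Bloc1s2 (0.928) first.

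The other genes of the same steps were counted by edgeR's quasi-likelihood test with TMM scaling, and counts that scaling by library total or 1 left-out library moved by over 1.5 times are given beside them. Of 7 other fatty acid binding and acyl-CoA binding genes tested, 1 was higher and 2 were lower in ICR, and 1 was higher and 4 were lower in C57BL/6J. Scaling by library total left 0 lower in ICR. In ICR 0 were higher without CDAHFD replicate 2, and in C57BL/6J 2 were higher without CDAHFD replicate 2 or ND replicate 3 and 3 without ND replicate 2. Dbi, the acyl-CoA binding protein, averaged 284 ± 16 CPM in ICR CDAHFD against 648 ± 194 CPM in ICR ND livers, and 335 ± 14 CPM in C57BL/6J CDAHFD against 1106 ± 47 CPM in C57BL/6J ND livers (SD, n = 3 each), and fell by 1.19 in ICR (adjusted p = 0.00794) and fell by 1.72 in C57BL/6J (adjusted p = 7.37e-05). Of 7 other transport and membrane uptake genes, 2 were higher and 2 lower in ICR, and 1 higher and 1 lower in C57BL/6J. By library total these were 4 higher and 1 lower in ICR, and 2 higher and 1 lower in C57BL/6J. In ICR 1 was higher without CDAHFD replicate 3 or ND replicate 3, and in C57BL/6J 2 were higher without CDAHFD replicate 2 and 2 lower without CDAHFD replicate 1 or 2. Slc27a5 fell by 2.29 in ICR (adjusted p = 0.00045) and fell by 2.17 in C57BL/6J (adjusted p = 0.000151). Slc27a1, the form best known from muscle and fat, rose by 1.31 in ICR (adjusted p = 0.00235), and its difference in C57BL/6J was 0.84 (adjusted p = 0.0524).

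Among lipases and their regulators, 1 of 10 tested was higher and 4 were lower in ICR, and 1 was higher and 6 were lower in C57BL/6J. By library total these were 3 higher and 3 lower in ICR, and 1 higher and 3 lower in C57BL/6J. The gene that rose was Lpl, the lipoprotein lipase that frees fatty acids from circulating triglyceride, at 137 ± 23 CPM in ICR CDAHFD against 19.2 ± 13.3 CPM in ICR ND livers, and 241 ± 75 CPM in C57BL/6J CDAHFD against 17.4 ± 2.5 CPM in C57BL/6J ND livers (SD, n = 3 each). Lpl rose by 2.82 in ICR (adjusted p = 0.00444) and by 3.8 in C57BL/6J (adjusted p = 7.09e-06). Lipc, the hepatic lipase, fell by 1.39 in ICR (adjusted p = 0.0046) and fell by 1.29 in C57BL/6J (adjusted p = 0.000114). Of 5 acyl-CoA synthetases tested, 1 was higher and 1 lower in ICR, and 2 were higher and 1 lower in C57BL/6J, and Acsl1, the main form of the liver, fell by 1.57 in ICR (adjusted p = 0.00522) and fell by 2.02 in C57BL/6J (adjusted p = 0.000612). The counts of this list rested on single libraries, with 0 to 1 higher and 1 to 3 lower in ICR and 1 to 2 higher and 1 to 2 lower in C57BL/6J as each was left out. Of the 6 left out in ICR, only ND replicate 3 left the 1 higher gene called, the 3 lower came without ND replicate 2, and CDAHFD replicate 1 in both strains and ND replicate 1 in C57BL/6J gave 2 lower when left out. In C57BL/6J 1 was higher without CDAHFD replicate 2 or 3 or ND replicate 1 or 3.

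Beside Vldlr, 2 of 12 lipoprotein receptors and their regulators were higher and 2 lower in ICR, and 3 were higher and 4 lower in C57BL/6J. By library total 5 were higher and 1 lower in each strain, and in ICR 1 was higher and 1 lower when any 1 CDAHFD library or ND replicate 3 was left out. Lrp6, a co-receptor of Wnt signalling, fell by 1.09 in ICR (adjusted p = 0.00108) and fell by 0.47 in C57BL/6J (adjusted p = 0.0115). Beside Mttp, 5 of 14 genes of VLDL assembly and secretion were lower in each strain, and 0 were higher by edgeR, by DESeq2 or at an unadjusted p under 0.05. By library total 4 were higher and 1 lower in ICR, and 5 were higher and 2 lower in C57BL/6J, so the direction of this list depends on the scaling. Leaving out ICR CDAHFD replicate 1 gave 3 lower in ICR, and leaving out CDAHFD replicate 2, CDAHFD replicate 3 or ND replicate 3 gave 2. Sar1b, a GTPase of lipoprotein export from the endoplasmic reticulum, fell by 0.94 in ICR (adjusted p = 0.0031) and fell by 1.13 in C57BL/6J (adjusted p = 0.00033). Aadac, an esterase of the endoplasmic reticulum, fell by 0.94 in ICR (adjusted p = 0.0228) and fell by 1.37 in C57BL/6J (adjusted p = 0.000365). The median log2 difference of the 14 genes was -0.26 in ICR and -0.33 in C57BL/6J.

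Of 11 partners and coregulators of PPAR-gamma tested, none was called higher by edgeR or DESeq2, with 1 in ICR at an unadjusted p under 0.05, and 4 were lower in ICR and 6 in C57BL/6J, and Cebpa, an activator that works beside PPAR-gamma, fell by 0.93 in ICR (adjusted p = 0.0067) and fell by 1.03 in C57BL/6J (adjusted p = 0.000945). By library total 3 were higher and 0 lower in ICR, and 2 higher and 1 lower in C57BL/6J, where no filter on low counts also gave 1 higher. In ICR 1 was lower without CDAHFD replicate 2 and 2 without ND replicate 3, and in C57BL/6J 2 were lower without CDAHFD replicate 3 or ND replicate 1 and 3 without ND replicate 3. Of the target genes of PPAR-gamma, 3 of 10 tested were higher and 3 lower in ICR, and 3 of 11 were higher and 5 lower in C57BL/6J. Aqp7, the glycerol channel of adipocytes, was at 0 counts in all 3 ICR ND libraries and averaged 6.29 ± 0.93 CPM in ICR CDAHFD livers (SD, n = 3), at least 39.1-fold higher than a floor of 3 counts per library. In C57BL/6J Aqp7 averaged 5.34 ± 0.82 CPM on CDAHFD against 0.270 ± 0.085 CPM on ND (SD, n = 3 each). It rose there by 4.28 (adjusted p = 2.67e-05, edgeR). Cidec, a lipid droplet protein on both the target and the adipocyte lists, rose by 2.68 in ICR (adjusted p = 0.000508) and by 1.92 in C57BL/6J (adjusted p = 3.8e-05). G0s2, an inhibitor of triglyceride lipase, differed by -1.10 in ICR (adjusted p = 0.144), which was not called, and fell by 2.73 in C57BL/6J (adjusted p = 2.34e-05). Of the 14 genes of PPAR-alpha and its targets, 2 were higher and 5 lower in ICR, and 3 were higher and 9 lower in C57BL/6J. By library total these were 4 higher and 1 lower in ICR, and 4 higher and 5 lower in C57BL/6J. Leaving out CDAHFD replicate 1, CDAHFD replicate 2 or ND replicate 3 of ICR gave 3 lower there, and leaving out ND replicate 3 gave 1 higher. Fgf21, a hormone of the fasted liver, rose by 3.57 in ICR (adjusted p = 0.0113) and by 1.98 in C57BL/6J (adjusted p = 5.88e-05). Slc25a20 was called lower by edgeR, at -0.91 in ICR (adjusted p = 0.00757) and -1.03 in C57BL/6J (adjusted p = 0.000437). Cyp4a10 differed by -1.34 in ICR (adjusted p = 0.176, edgeR), not called. In C57BL/6J it was called lower, at -1.72 (adjusted p = 0.000242, edgeR).

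**Figure D5:**
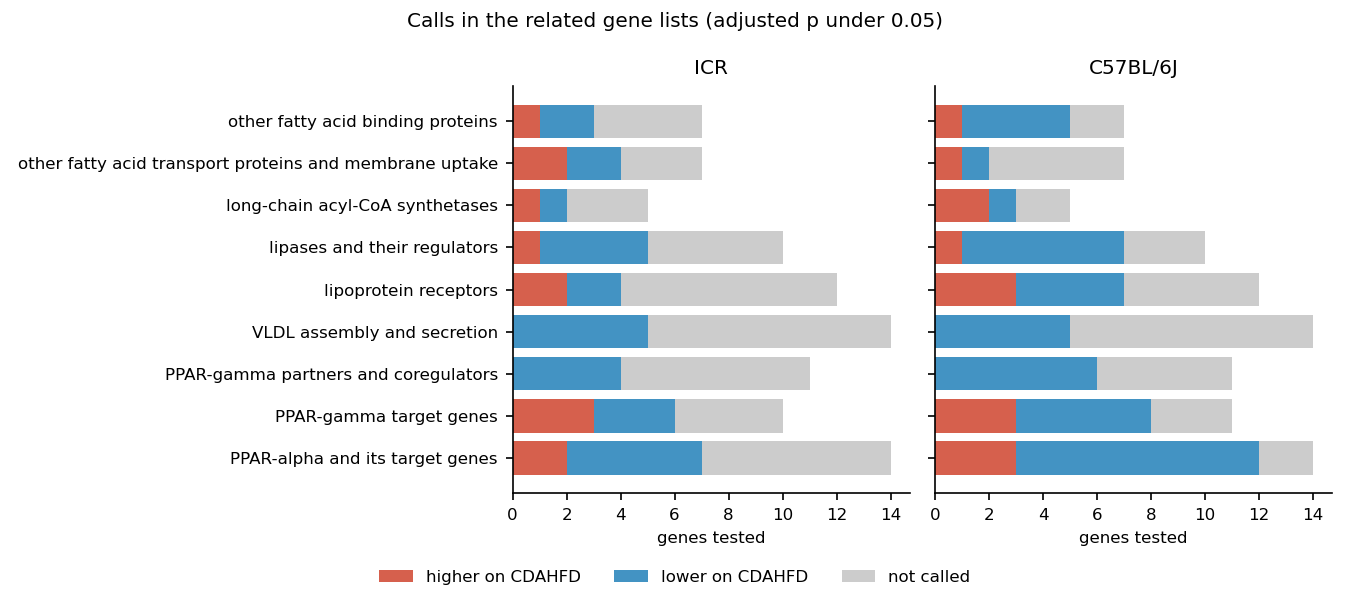
Bars count the genes of 9 related lists that were called higher on CDAHFD, called lower or not called by edgeR's quasi-likelihood test at an adjusted p under 0.05, with TMM scaling, with ICR on the left and C57BL/6J on the right, and the length of a bar is the number of genes tested. VLDL assembly and secretion shows 5 lower of 14 and 0 higher in both strains, against 4 higher in ICR and 5 higher in C57BL/6J with scaling by library total.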

How the data were processed

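RNA of 12 liver samples was sequenced with paired-end reads. The submitters' processing notes name fastp 0.23.4, HISAT2 2.2.1, featureCounts 2.0.6, edgeR 4.0.16 and mm39, whereas the study's methods name the mouse build before it. The sample protocols describe purified mRNA and the study's methods rRNA-depleted RNA. The annotation and the strand setting of the counting were not stated in any source used. The authors deposited raw read counts per gene and FPKM values per gene, FPKM being scaled by the authors to gene length and library total, in a table from which 12 per-sample columns were not used and 3 repeated lines were dropped. Here counts of 17710 genes were filtered with filterByExpr, scaled with TMM and tested with edgeR 4.0.16 (quasi-likelihood, R 4.3.3), within a strain on 6 libraries and otherwise on 12, with Benjamini-Hochberg adjustment over all genes tested. The labels give the 3 libraries of a group as separate samples and do not name the animals, so p-values measure the spread between these samples. FPKM served for order and family shares, tested by exact permutation of diet within strains. Totals were 22245245 to 32214782 counts, and with n = 3 per group the precision rests on the spread between 3 libraries. The 10 members were given by name. The 17 other lists (169 of 181 genes found by name) and the rule for named genes were chosen with earlier results of these data known. That rule took the 3 smallest p-values of a list, and the 3 most correlated genes of a member. Alternatives were DESeq2 1.42.0, 2 other scalings, 2 other filters, a replicate block, a single fit, the study's threshold and leaving out each library. The script was tested on simulated data. No pair of libraries was identical. Promoters are RefSeq's. Some genes of the lists are not reported here by name.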

Additional observations from a re-analysis of the deposited data

How the results depend on the processing

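The diet calls of Cd36, Fabp4 and Slc27a2 in both strains, and of Fabp1, Fabp7, Pparg and Mttp in C57BL/6J, held in every alternative fit run. The depth was 22245245 to 32214782 counts, and no detection limit was computed. Scaling by library size alone gave 5 members higher and 1 lower on CDAHFD in ICR, and turned Fabp2 (0.57 in ICR, 0.56 in C57BL/6J) and Slc27a4 (0.49 in ICR, 0.22 in C57BL/6J). DESeq2 called 1 member with a diet effect higher in ICR, 2 higher and 2 lower in ICR on CDAHFD, and 2 higher and 4 lower in ICR on ND. The study's threshold (unadjusted p under 0.05 and at least 2-fold) gave 3 members higher on CDAHFD in C57BL/6J, since Pparg differed 1.98-fold. It gave 1 member with a diet effect higher in ICR than in C57BL/6J. Between strains it gave 0 lower in ICR than in C57BL/6J on CDAHFD and 1 higher in ICR on ND. Without a filter 2 were higher in ICR than in C57BL/6J on CDAHFD. The cause of these changes was not tested.

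Same-numbered libraries share only a number (correlations of their deviations -0.025 to 0.166), and not every library correlated best with its own number. With the replicate block, 5 members were higher on CDAHFD in ICR (with Fabp7, adjusted p = 0.0392, and Vldlr, 0.0235, added), Vldlr was called in C57BL/6J (0.0377), 3 were higher in ICR on CDAHFD, and 2 were higher (Slc27a4 and Vldlr) and 4 lower (Fabp1 and Pparg added) in ICR on ND, and Fabp2 in ICR was 0.036.

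Leaving out 1 library gave 2 to 4 members higher and 2 to 3 lower on CDAHFD in ICR, 4 higher and 3 lower in C57BL/6J each time, 0 with a strain by diet difference, 0 to 2 higher and 0 to 1 lower in ICR on CDAHFD, and 0 to 1 higher and 1 to 5 lower in ICR on ND. The diet difference of Fabp2 ranged from -0.31 to 0.42 in ICR and from -0.30 to 0.073 in C57BL/6J, and that of Slc27a4 in ICR from -0.21 to 0.012. The strain by diet difference ranged from -0.12 to 0.54 for Fabp1, -0.22 to 0.48 for Fabp2, -0.34 to 0.20 for Fabp4 and -0.064 to 1.46 for Vldlr. Cd36 between strains on CDAHFD ranged from -0.28 to 0.28. The Fabp1 share differed by -3.85 to -3.58 points and the Slc27a2 share by 5.08 to 7.72. Within 1 strain, where the exact permutation p cannot go below 0.1, the Fabp1 share differed by -3.82 points in ICR and -3.63 in C57BL/6J (exact p = 0.1 each), and the Slc27a2 share by 6.29 in ICR (exact p = 0.2) and 6.85 in C57BL/6J (exact p = 0.1).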

Other observations

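Genes of the other cell types of the liver moved with the same diets, beside the members. All 10 stellate cell and fibroblast markers were tested, and 9 were called higher on CDAHFD in ICR and 10 in C57BL/6J by edgeR's quasi-likelihood test. Their summed level was 2172 to 2588 CPM in ICR CDAHFD against 266.7 to 571.4 CPM in ICR ND livers, and 1777 to 2751 CPM in C57BL/6J CDAHFD against 314.4 to 416.7 CPM in C57BL/6J ND livers. Of 8 cholangiocyte markers, 7 were called higher in ICR and 6 in C57BL/6J, with 4 in ICR without ND replicate 1 and 3 without ND replicate 3. The sum of the 8 was highest in replicate 1 of each CDAHFD group, at 1495 CPM in ICR and 2689 CPM in C57BL/6J. Most of it was Spp1, at 1283 and 2434 CPM in those libraries, and each of the 8 was highest in replicate 1 within both CDAHFD groups. Of the enterocyte and pancreas markers, 6 of 10 were found and their sum did not pass 45.0 CPM in any library, with Pnlip, the pancreatic lipase, under 0.1 CPM in every library. Of the 2 tested by edgeR, Vil1 was called higher, by 3.76 in ICR (adjusted p = 0.00795) and 3.13 in C57BL/6J (adjusted p = 0.000596). Cela1, a large part of the sum, was called lower, at -1.49 in ICR (adjusted p = 0.0119) and -1.29 in C57BL/6J (adjusted p = 0.000945). With scaling by library total 0 were lower in ICR.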
